A study of Mus musculus with 4 samples.

Results

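Vitamin A travels in blood as retinol and is turned inside cells into retinoic acid, a ligand that switches genes on through nuclear receptors. The expression of 9 mouse genes of this pathway was read by symbol from RNA sequencing of hippocampus, among 19388 genes with values. They are the retinaldehyde dehydrogenases Aldh1a1 and Aldh1a2, the retinol carrier Rbp4 and its membrane receptor Stra6, the intracellular retinoic acid carrier Crabp2, the retinoic acid receptors Rara and Rarb, the retinoic acid hydroxylase Cyp26b1 and the retinaldehyde reductase Dhrs3. All 9 were found, and all 9 had a mean of at least 1 FPKM, the minimum for testing, as did 13372 genes in all.

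The 4 samples are hippocampus of C57BL/6 mice, in 2 of which the mice received PBS and in 2 (+)-Sodium L-ascorbate, the sodium salt of vitamin C. The series gives the treatment as 30 days. The series title speaks of middle-aged mice and of cognition, while the sample labels give no age, sex, dose or route. Each group has a sample numbered 1 and a sample numbered 2. The labels do not say whether these are separate animals or pools, so p-values measure only the spread between these samples. Values are FPKM, the fragments of a gene per length of transcript and per total of mapped fragments, so levels of different genes can be compared per length. FPKM summed to between 348133 and 391142 per sample, and read totals are not given, so counting error is unknown.

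As background, cells make retinoic acid from retinol, which dehydrogenases oxidise by way of retinaldehyde. Dhrs3 turns retinaldehyde back into retinol and Cyp26 enzymes break retinoic acid down, so both limit the signal. In the rodent brain the meninges are known as a site of Aldh1a2 expression, the choroid plexus secretes the carrier partner transthyretin (Ttr), and Rarb is known as a gene that retinoic acid itself induces.

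Promoter windows from RefSeq (GRCm38.p6), which run from 250 bases before to 50 bases after an annotated start, were found for 8 of the 9 genes, 18 windows in all. They were searched on both strands for the paired cores that retinoic acid receptors are known to bind, GGTCA or GTTCA followed in the same direction by GGTCA or GTTCA. In DR5, the classic element, 6 bases lie between these cores, which leaves a spacer of 5 bases between the full sites. The Rarb window (chr14:16575427-16575726, minus strand) held the 1 DR5 found, at positions -52 to -37 from the start, shown in capitals. It is printed because this element marks Rarb as a known target of its own ligand. The window of Aldh1a2 (chr9:71215539-71215838, plus strand) is printed beside it because this gene had the most negative log2 difference of the 9 with ascorbate, and it held none of the motifs searched.
Rarb: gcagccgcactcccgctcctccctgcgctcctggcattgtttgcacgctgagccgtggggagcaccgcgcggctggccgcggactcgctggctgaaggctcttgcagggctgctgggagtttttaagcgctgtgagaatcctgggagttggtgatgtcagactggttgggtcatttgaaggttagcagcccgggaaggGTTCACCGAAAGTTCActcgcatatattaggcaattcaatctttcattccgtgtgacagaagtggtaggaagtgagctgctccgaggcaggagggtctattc
Aldh1a2: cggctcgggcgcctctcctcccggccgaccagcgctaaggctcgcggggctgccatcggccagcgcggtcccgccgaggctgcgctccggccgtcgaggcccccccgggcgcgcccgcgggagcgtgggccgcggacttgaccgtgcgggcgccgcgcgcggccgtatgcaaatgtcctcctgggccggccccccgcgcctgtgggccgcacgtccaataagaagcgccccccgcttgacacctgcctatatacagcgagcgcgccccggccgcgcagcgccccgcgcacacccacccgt
Of all 32851 windows in the table, 0.247% held a DR5. The closer pairs DR2 and DR1, with spacers of 2 bases and 1 base, were in 0.399% and 0.402% of all windows and in 0 of the 18 windows of these genes. A single AGGTCA or AGTTCA, which overlaps the cores above, was in 27.7% of all windows and in 4 of the 18, which belong to Rara, Rarb and Stra6. A match is a description of letters and not a bound site. The Aldh1a2 window was 78% G and C, against 57.7% for the Rarb window.

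The 9 genes followed 3 patterns. Aldh1a2, Crabp2, Stra6 and Dhrs3 were lower under ascorbate, with no overlap between the groups. Aldh1a1 and Rarb were high in the samples numbered 1 and low in those numbered 2, in PBS and ascorbate alike. Rbp4, Rara and Cyp26b1 showed neither pattern, and their groups overlapped. Aldh1a2, Crabp2 and Dhrs3 were also higher in number 1 within each group, by 1.01- to 1.28-fold with PBS and 1.18- to 4.22-fold with ascorbate. In all, 5 of the 9 genes were higher in number 1 in both groups, as were 6339 of the 13372 tested genes. Rbp4, Rara and Stra6 were higher in number 2 than in number 1 within each group.

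**Figure D1:**
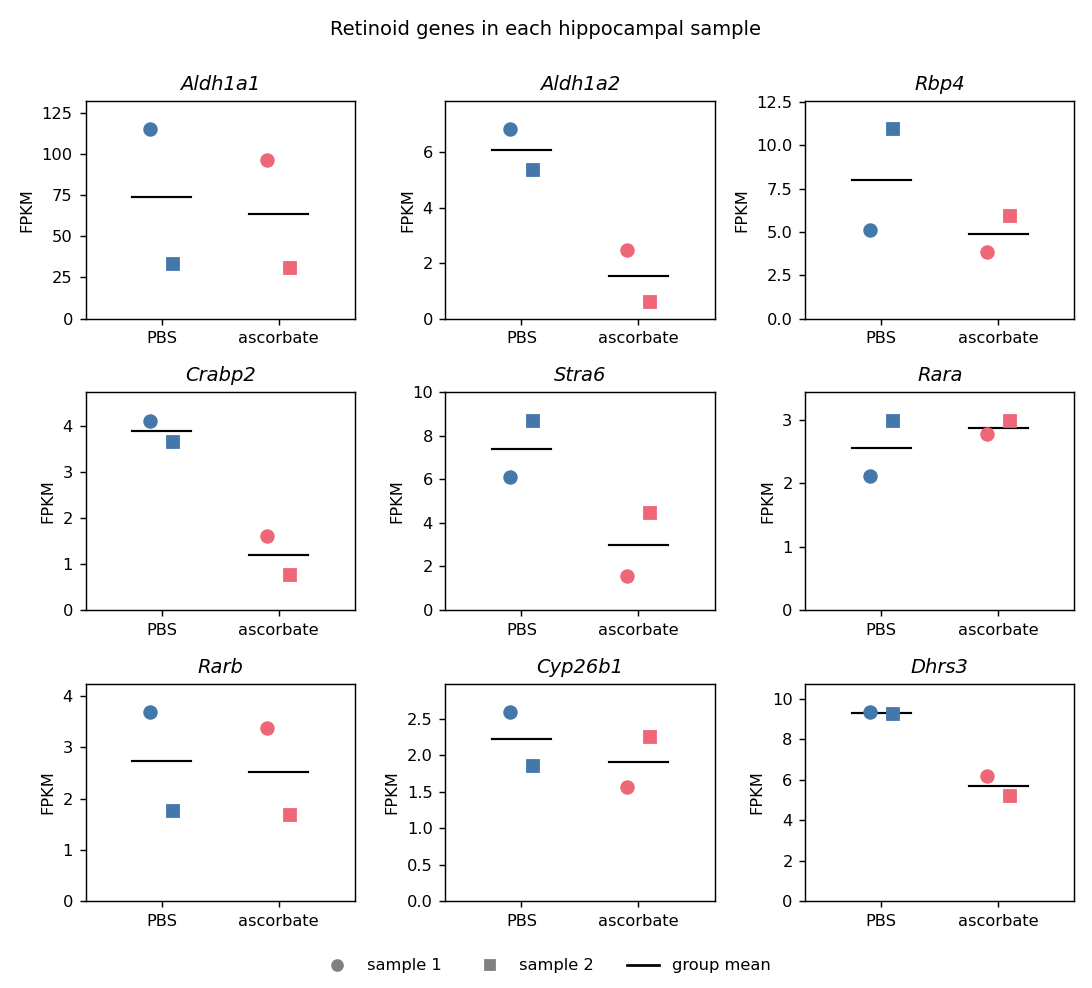
FPKM (vertical axes, each from 0) of the 9 retinoid genes in the 2 PBS samples (blue) and 2 ascorbate samples (red), with circles for samples numbered 1, squares for those numbered 2 and lines for group means. Aldh1a2, Crabp2, Stra6 and Dhrs3 lie lower in both ascorbate samples, while Aldh1a1 and Rarb separate circles from squares.

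None of the 9 genes passed an adjusted p of 0.05 in limma-trend with Benjamini-Hochberg adjustment over 13372 genes, and neither did any other gene (0%). At an unadjusted p under 0.05, 4 of the 9 genes were lower with ascorbate, against 2.72% of all tested genes (2.82% in either direction), and these were Aldh1a2, Crabp2, Stra6 and Dhrs3. Of these, Stra6 was the nearest to the threshold, and its p was 0.05 or more in 8 of the 10 alternatives that keep all samples, from 0.0509 to 0.0841 in limma. The count was then 3 of 9, against 2.55% to 3.52% of all tested genes, or 1 of the 4 tested at a minimum of 5 FPKM, against 1.86%. It stayed at 4 of 9 with Ttr left out and the rest rescaled, against 3.01%. With the replicate number as a block it was 5 of 9, with Rbp4 added, against 8.73%. The count was 2 of 9 without PBS sample 1 (Rbp4 and Crabp2), where 1.30% of tested genes were lower at that p, and 2 of 9 without PBS sample 2 (Aldh1a2 and Crabp2), where 1.68% were. The groups did not overlap for the same 4 genes, all lower, where 14.4% of tested genes were lower without overlap and 8.65% higher. Without PBS sample 2, which leaves that group with 1 value, the groups did not overlap for 8 of the 9 (7 lower and 1 higher), but that was so for 62.1% of all tested genes. Differences of -1 or below on the log2 scale were found in 3 of the 9 and in 1.52% of tested genes. In all, 8 of 9 log2 differences were below 0, as were 54.2% of those of all tested genes. These were 8 of 9 and 44.2% after TPM scaling, 8 of 9 and 43.2% after median-of-ratios scaling, and 6 of 9 and 42.9% after quantile normalization. The median log2 difference of the 9 was -0.56, beside -0.02 for all tested genes, with -0.48 within number 1 and -0.72 within number 2. The 9 genes were chosen with earlier results of these data known, so their counts beside all tested genes are descriptions and not an independent test.

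Aldh1a2 (gene ID 19378, chromosome 9, 71215789 to 71296243, GRCm38), the enzyme that makes most retinoic acid in the embryo, was 6.84 and 5.35 FPKM in PBS samples 1 and 2. It was 2.49 and 0.590 FPKM in ascorbate samples 1 and 2. The groups did not overlap, and ascorbate sample 2 was the lowest of the 4. Group means were 6.10 ± 1.05 and 1.54 ± 1.34 FPKM (SD, n = 2), so that the PBS mean was 3.96-fold the ascorbate mean. The log2 difference on the log2(FPKM + 1) scale was -1.58 (SE 0.43, unadjusted p = 0.0183 and adjusted p = 1.00 in limma-trend). Leaving out ascorbate sample 2 gave -1.02, and leaving out ascorbate sample 1 gave -2.15. Within sample number 1 the PBS level was 2.75-fold the ascorbate level, and within number 2 it was 9.07-fold.

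Crabp2 (gene ID 12904, chromosome 3, 87948693 to 87953372), which hands retinoic acid to its nuclear receptors, was 4.11 and 3.65 FPKM under PBS against 1.60 and 0.770 FPKM under ascorbate. The PBS samples lay close together, and the groups were well apart. Its log2 difference was -1.18 (SE 0.26, 95% interval -1.88 to -0.49), with an unadjusted p of 0.00832 and an adjusted p of 0.753 in limma-trend. By unadjusted p it ranked 147 of the 13372 tested genes, ahead of the other 8.

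Stra6 (gene ID 20897, chromosome 9, 58063793 to 58154004), the membrane receptor through which cells take retinol from Rbp4, was 6.11 and 8.70 FPKM under PBS. With ascorbate it was 1.56 and 4.45 FPKM. Here ascorbate sample 1, not sample 2, was the lowest, so Stra6 and Aldh1a2 differed in which ascorbate sample held the least transcript. Its log2 difference was -1.15 (SE 0.43, unadjusted p = 0.0494 and adjusted p = 1.00 in limma-trend), which became -0.61 without ascorbate sample 1 and -1.70 without ascorbate sample 2. Stra6 overlaps the gene Ccdc33, which was at 0.110 to 1.94 FPKM, and no strand setting is given, so reads of the overlap cannot be assigned with certainty.

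Dhrs3 (gene ID 20148, chromosome 4, 144892534 to 144928209), which returns retinaldehyde to retinol, was 9.34 and 9.24 FPKM under PBS and 6.16 and 5.21 FPKM under ascorbate. The PBS samples were nearly equal and the ascorbate samples were both lower, by less than for the 3 genes above. Its log2 difference was -0.63 (SE 0.15, unadjusted p = 0.0123 and adjusted p = 0.923 in limma-trend). Over the 4 fits that each left out 1 sample it ran from -0.73 to -0.52. Dhrs3 overlaps Vps13d, which was at 8.38 to 9.04 FPKM in the 4 samples and did not follow the groups.

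Rbp4 (gene ID 19662, chromosome 19, 38116620 to 38125321), the carrier that brings retinol to Stra6, was 5.12 and 10.92 FPKM under PBS and 3.87 and 5.93 FPKM under ascorbate. Ascorbate sample 2 lay above PBS sample 1, so the groups overlapped, although the ascorbate sample was lower within each number. Rbp4 also differed by sample number, with number 1 at 0.469 times the level of number 2 with PBS and 0.653 times with ascorbate. The log2 difference of -0.56 (SE 0.39, unadjusted p = 0.226 in limma-trend) was -0.08 without PBS sample 2 and -1.04 without PBS sample 1.

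**Figure D2:**
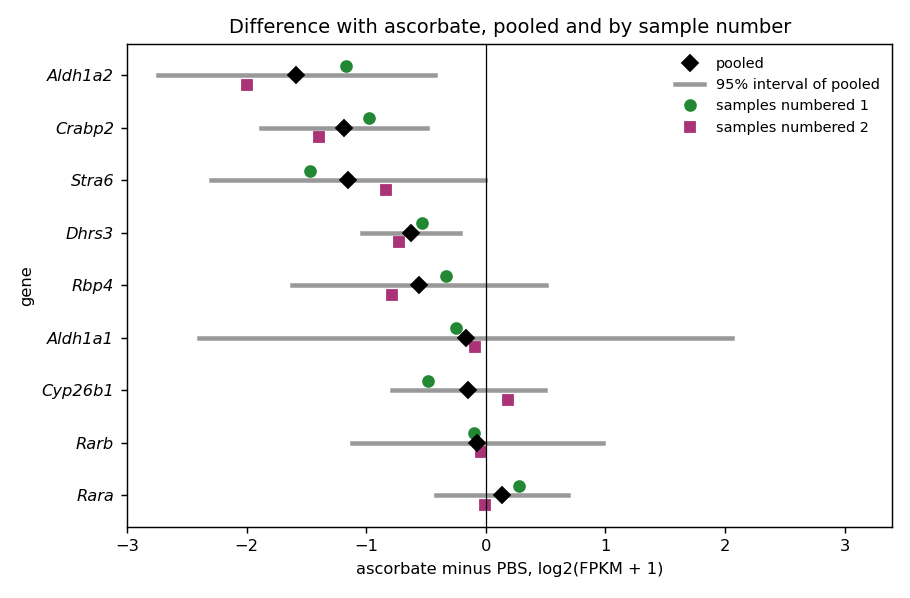
Difference between ascorbate and PBS on the log2(FPKM + 1) scale (horizontal axis) for each of the 9 genes. Diamonds give the pooled difference with its 95% interval from limma-trend (grey), circles the difference between the samples numbered 1 and squares that between those numbered 2, and for 7 genes both numbers lie below 0.

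Markers of the choroid plexus epithelium and of meningeal fibroblasts were lower in the same samples as Aldh1a2, Crabp2, Stra6 and Dhrs3. All 22 choroid plexus markers were lower with ascorbate without overlap of the groups, as were 14.4% of all tested genes. The 22 summed to 9800.2 and 9067 FPKM under PBS against 237 and 60.3 FPKM under ascorbate. Of these markers, Otx2, Tmem72, Wfdc2 and Calml4 were listed at 0 in ascorbate sample 2. Of 18 tested meningeal markers, of 23 in the list, all 18 were lower with ascorbate and 17 did so without overlap. Their sum over the 23 was 293 and 439 FPKM under PBS and 105 and 173 FPKM under ascorbate, and none was at 0 in any sample. Crym made up a large share of that sum in the samples numbered 2, at 144 and 110 FPKM. The sum without Crym, a choice made after its values were seen, was 269 and 295 FPKM under PBS and 76.9 and 63.3 FPKM under ascorbate. Both marker lists were chosen with earlier results of these data known, so their counts are descriptions and not independent support. The part of these tissues in the differences of the retinoid genes was not tested, and in bulk tissue fewer cells of a type and less RNA per cell cannot be told apart.

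Set against the meningeal transporter Slc6a13, Aldh1a2 stood at a ratio of 0.955 and 0.795 in PBS samples 1 and 2 and of 1.22 and 0.413 in ascorbate samples 1 and 2. These ratios within a sample do not depend on library scaling, and the 2 groups overlapped in them. They rest on 1 marker, whose log2 difference was -1.54, while Igf2 and Dcn of the same list had -3.63 and -1.32. The difference of Slc6a13 lies near the -1.58 of Aldh1a2, so overlap in this ratio follows largely from the choice of marker. Igf2 was 77.3 and 85.3 FPKM under PBS and 9.36 and 3.24 FPKM under ascorbate, a larger drop than that of Aldh1a2. Dcn differed by less on the log2 scale. Ratios of Aldh1a2 to these and other meningeal markers were not computed and can differ. Aldh1a2 over Crabp2 was likewise 1.66 and 1.47 with PBS and 1.56 and 0.766 with ascorbate, with ascorbate sample 1 inside the PBS range and ascorbate sample 2 below it. In the endothelial and mural list, 12 of 13 tested genes were lower, with a median log2 difference of -0.29, and 8 were lower without overlap. In the ependymal list all 10 were lower, but 2 without overlap and 6 within both numbers, with medians of -0.17 and -1.74 within numbers 1 and 2. Over all tested genes, 14.4% were lower without overlap. Astrocyte markers had a median of 0.01, with 5 lower and 5 higher.

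By a rule of smallest distance between profiles over the 4 samples, computed on log2(FPKM + 1) minus each gene's mean, the 3 tested genes most like each of these 4 were taken, of which those reported follow. For Aldh1a2 they were Col1a2, Tmem98 and Dab2, at distances of 0.156 to 0.166. Col1a2, a fibrillar collagen chain, was 6.33 and 5.47 FPKM under PBS and 2.66 and 0.470 FPKM under ascorbate. For Crabp2 they were Emb (0.0603), H2-Ab1 (0.135) and Sowahc (0.138). For Stra6 they included Ccn2 (0.185) and Ogn (0.390), and both were also lowest in ascorbate sample 1. Dhrs3 was closest to Lrp5 (0.0253), Copz2 (0.0472) and Nek8 (0.0672). Likeness over 4 samples describes these libraries only.

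**Figure D3:**
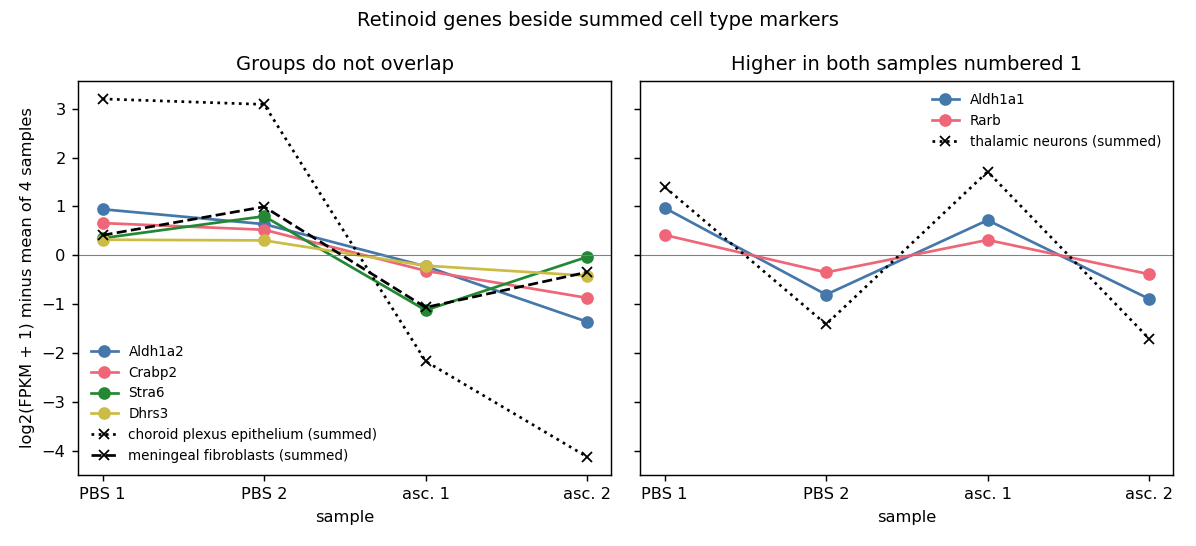
Values on the log2(FPKM + 1) scale minus the mean of the 4 samples (vertical axis), by sample, for Aldh1a2, Crabp2, Stra6 and Dhrs3 beside the summed choroid plexus and meningeal markers (left) and for Aldh1a1 and Rarb beside the summed thalamic markers (right). The left lines drop from PBS to ascorbate, and the right lines alternate with the sample number.

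Aldh1a1 (gene ID 11668, chromosome 19, 20492583 to 20643463), a second retinaldehyde dehydrogenase, was the most abundant of the 9 genes per length. It was 115 and 32.9 FPKM in PBS samples 1 and 2 and 96.5 and 30.9 FPKM in ascorbate samples 1 and 2. Samples numbered 1 were high and samples numbered 2 low, by 3.49-fold with PBS and 3.12-fold with ascorbate, and the treatment groups overlapped. The log2 difference with ascorbate was -0.17 (SE 0.83), and its 95% interval of -2.39 to 2.06 leaves room for sizeable differences in either direction. Its sign turned without PBS sample 1 (0.72) and without ascorbate sample 2 (0.64). Such fits leave the sample numbers unbalanced between the groups, so the difference between numbers enters them. Within numbers 1 and 2 the log2 differences were -0.25 and -0.09. Transcripts of Aldh1a1 and Aldh1a7 were 89.1% identical over 2072 bases, and Aldh1a7 was listed at 0.0800 to 0.690 FPKM.

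Rarb (gene ID 218772, chromosome 14, 16430839 to 17082331), the receptor with the DR5 printed above, was 3.69 and 1.76 FPKM under PBS and 3.37 and 1.69 FPKM under ascorbate. It was 2.10-fold higher in number 1 than in number 2 with PBS and 1.99-fold with ascorbate, and within each number the treatments lay close together. The log2 difference with ascorbate was -0.07 (SE 0.39, 95% interval -1.12 to 0.98). It turned positive after quantile normalization (0.07) and without PBS sample 1 (0.31) or ascorbate sample 2 (0.28). Leaving out a sample unbalances the sample numbers between the groups, so the difference between numbers enters those fits. Within numbers 1 and 2 the log2 differences were -0.10 and -0.04. A Rarb transcript in GENCODE M21 is identical to one of Top2b over 1433 bases, and Top2b was at 25.6 to 31.1 FPKM, so the level of Rarb is uncertain. Whether the annotation behind the deposited values holds these transcripts is not given. Rarb also overlaps Gm46442, which was at no more than 0.540 FPKM.

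Of the 9 genes, Aldh1a1 and Rarb were the 2 that stood more than 1.5-fold higher in number 1 than in number 2 in both groups, a limit set after their values were seen, and 8.42% of all tested genes did so. The limit was not applied to all genes in the opposite direction, in which Rbp4 stood more than 1.5-fold higher in number 2 in both groups. All 10 markers of thalamic neurons were higher in number 1 in both groups, with sums of 376 and 466 FPKM in PBS and ascorbate samples 1 against 52.7 and 42.8 FPKM in samples 2. All 10 markers of hippocampal neurons were detected in each sample, with sums of 135 and 165 FPKM in samples 1 and 294 and 332 FPKM in samples 2. The part of tissue makeup in the levels of Aldh1a1 and Rarb was not tested, and no label says what the number stands for. The orphan receptor Rora, which is also in the thalamic list, was 27.3 and 5.85 FPKM under PBS and 18.6 and 5.54 FPKM under ascorbate. The 3 tested genes with profiles most like that of Aldh1a1, named after its values were seen, were Pou4f1 (0.108), Ano1 (0.144) and Tnfrsf12a (0.155). Pou4f1, a transcription factor known from the medial habenula, was 2.57 and 2.19 FPKM in PBS and ascorbate samples 1 and listed at 0 in both samples 2. For Rarb they were Olfr287 (0.0231), Smad9 (0.0266) and Pou3f2 (0.0379).

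Rara (gene ID 19401, chromosome 11, 98927800 to 98974942), the more widely expressed receptor, was 2.11 and 2.99 FPKM under PBS and 2.78 and 2.98 FPKM under ascorbate. PBS sample 1 was the lowest, and the other 3 samples lay together. Its log2 difference was 0.14 (SE 0.20, 95% interval -0.41 to 0.69), and it was -0.04 without PBS sample 1. It overlaps Gm46294, which was at no more than 0.210 FPKM. The ratio of Rara to Rarb was 0.572 and 0.825 in PBS and ascorbate samples 1 and 1.70 and 1.76 in samples 2, so the ratio was below 1 in samples 1 and above 1 in samples 2. The level of Rarb is uncertain because of the bases shared with Top2b, so these ratios do not settle which receptor was the more abundant.

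Cyp26b1 (gene ID 232174, chromosome 6, 84571414 to 84593908), which clears retinoic acid, was 2.59 and 1.85 FPKM under PBS and 1.57 and 2.25 FPKM under ascorbate. The order of the treatments was opposite within the numbers, with log2 differences of -0.48 within number 1 and 0.19 within number 2. The pooled difference was -0.15 (SE 0.24, 95% interval -0.78 to 0.49), or 0.00 after quantile normalization and 0.02 without PBS sample 1 or without ascorbate sample 1. Aldh1a2 stood at 2.64 and 2.89 times the FPKM of Cyp26b1 with PBS, and at 1.59 and 0.262 times with ascorbate.

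In PBS the order of mean levels per length was Aldh1a1, Dhrs3, Rbp4, Stra6, Aldh1a2, Crabp2, Rarb, Rara and Cyp26b1, from 74.0 ± 58.1 down to 2.22 ± 0.523 FPKM (SD, n = 2). The ranges of neighbours overlapped except between Aldh1a1 and Dhrs3 and between Aldh1a2 and Crabp2. In ascorbate, Aldh1a2 and Crabp2 were the last of the 9, below Rara, Rarb and Cyp26b1, at 1.54 ± 1.34 and 1.19 ± 0.587 FPKM (SD, n = 2), though ranges overlapped for all neighbours from Dhrs3 down. Among the dehydrogenases Aldh1a1, Aldh1a2 and Aldh1a3, Aldh1a2 made up 5.60% and 13.9% of the summed FPKM under PBS and 2.51% and 1.85% with ascorbate. The 8 genes other than Aldh1a1 summed to 39.9 and 44.5 FPKM under PBS and to 23.4 and 23.9 FPKM under ascorbate.

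Of 62 other genes of retinoid handling, 61 had values and 38 were tested. None passed the adjusted threshold (0% of all tested genes). An unadjusted p under 0.05 in limma-trend was found for 3 of the 38, all lower with ascorbate, against 2.72% of all tested genes. The groups did not overlap for 8 of the 38 that were lower and 2 that were higher, against 14.4% and 8.65% of all tested genes. The median log2 difference was -0.02, as over all genes. The sign of that median turned to 0.02 after TPM and median-of-ratios scaling and 0.03 after quantile normalization.

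Among carriers, 4 of 10 were tested. Ttr, which holds Rbp4 in plasma and is also in the choroid plexus list, was 8152 and 7257 FPKM under PBS and 88.2 and 1.03 FPKM under ascorbate. Fabp5 and Rlbp1 had log2 differences of -0.15 and 0.03, with groups that overlapped.

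Of enzymes that convert retinol and retinaldehyde, 20 of 21 had values and 10 were tested, 7 of them lower. Rdh5, a retinol dehydrogenase known from the pigment epithelium of the eye, was 28.7 and 18.7 FPKM under PBS and 4.74 and 1.52 FPKM under ascorbate. Its log2 difference of -2.67 (SE 0.47, unadjusted p = 0.00370 and adjusted p = 0.538 in limma-trend) was the most negative of the tested genes in this list. Rdh10, the main enzyme for retinol oxidation in the embryo, was 7.72 and 7.83 FPKM under PBS and 5.89 and 5.85 FPKM under ascorbate, a small gap of -0.35 with groups that did not overlap. Rdh12 was likewise lower without overlap, at -0.34, while Dhrs4, at -0.25, had groups that overlapped. In this list 4 of the 10 tested genes were lower without overlap, against 14.4% of all tested genes. Of the breakdown enzymes, Cyp4v3 and Cyp2s1 were tested, at -0.21 and 0.03, and Cyp26a1 was below the level for testing at 0.240 and 0.300 FPKM under PBS and 0 and 0.0400 FPKM under ascorbate.

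All 13 receptors and cofactors were tested, and their log2 differences ran from -0.30 to 0.24, with 6 lower and 7 higher. Rxrb, a partner receptor of Rara and Rarb, had 17.9 and 17.5 FPKM under PBS and 22.8 and 19.6 FPKM under ascorbate. It was the 1 gene of the 13 whose groups did not overlap (unadjusted p = 0.169 in limma-trend), where 8.65% of all tested genes were higher without overlap. The cofactors Ncoa3 and Ncoa1 had log2 differences of -0.11 and 0.10. Of 14 genes listed as responsive to retinoic acid, 9 were tested, 4 lower and 5 higher, with a median of 0.04. Of these 9, Rai14 and Tgm2 were lower without overlap, at -0.62 and -0.50 (unadjusted p = 0.0652 and 0.0785 in limma-trend), and Meis2 was higher without overlap at 0.11. Over all tested genes, 14.4% were lower and 8.65% higher without overlap. Rarres2 was 28.9 and 15.6 FPKM under PBS and 29.2 and 5.62 FPKM under ascorbate.

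**Figure D4:**
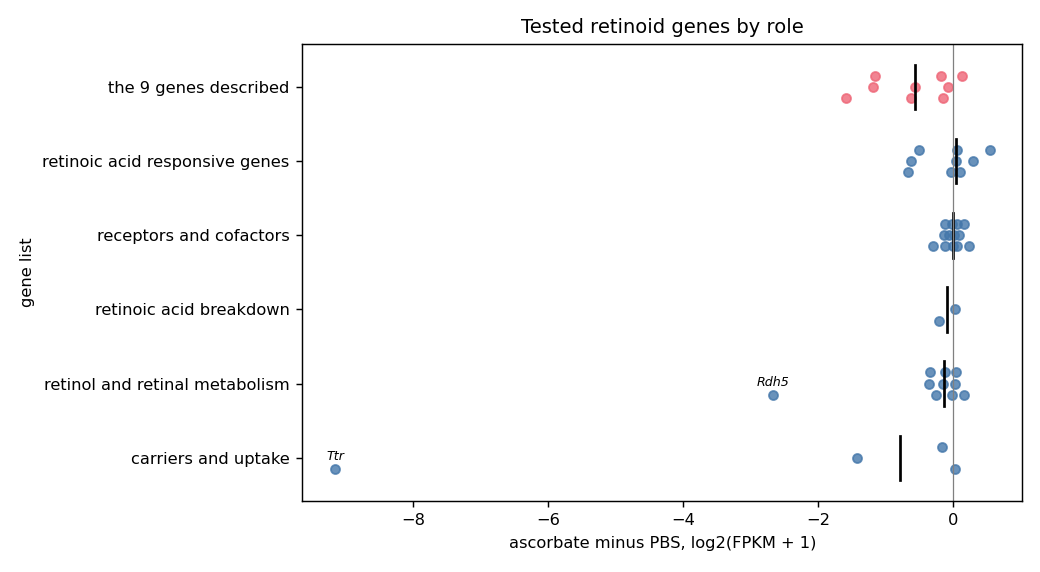
Difference between ascorbate and PBS on the log2(FPKM + 1) scale (horizontal axis) for each tested gene (points), by role, with the list's median (black line). Red points are the 9 genes described and blue points other retinoid genes, of which the labelled Ttr and Rdh5 lie lowest and the receptors and cofactors between -0.30 and 0.24.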

How the data were processed

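Each deposited file holds FPKM for 1 of the 4 libraries, per the file headers, with 2 decimals. HISAT2, Bowtie2, RSEM and DESeq2 and the GRCm38 build were used by the authors, per the submitters' processing notes, which state no version, role or order. Poly(A) RNA was captured on oligo(dT) beads and primed with random hexamers, per the labels' protocols. Annotation and strand setting are not given in the sources used here. FPKM depends on the library total, so loss or gain of an abundant RNA like Ttr shifts every other gene of that library.

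Of 22173 genes, 2785 were empty in all samples. Depth is unknown, and in 337 olfactory and vomeronasal receptor genes the most frequent FPKM above 0 was 0.0600 or 0.0700. Genes averaging 1 FPKM or more (13372) were tested on log2(FPKM + 1) with limma-trend (limma 3.58.1, R 4.3.3), ascorbate against PBS, with 2 residual degrees of freedom, a prior of 2.33, and Benjamini-Hochberg adjustment at 0.05 over all tested genes. The test was run on simulated data with 200 changed genes and noise that was independent between samples. That check does not cover deviations shared by same-numbered samples. Differences within a sample number carry no test. Folds are ratios of FPKM. Transcripts were compared with GENCODE M21 by BLAST+ 2.17.0 (at least 200 bases), and positions come from RefSeq (GRCm38.p6). The 9 genes and all lists were chosen with earlier results of these data known. Besides the 9, genes named are up to 4 per pathway list with the smallest unadjusted p, the 3 nearest profiles of members whose groups do not overlap, markers by level, and a few said to be chosen later. A few genes that the rule takes are not reported here. Alternatives were pseudocounts, filters, scalings, limma without trend, each sample left out in turn, and a replicate block.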

Additional observations from a re-analysis of the deposited data

How the results depend on the processing

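Aldh1a2, Crabp2, Stra6, Dhrs3 and Rbp4 stayed lower with ascorbate in each alternative fitted to them. None of the 9 genes passed the adjusted threshold in any alternative except the replicate block. With the replicate number as a block, 4 of the 9 genes passed (Aldh1a2, Crabp2, Stra6 and Dhrs3, adjusted p from 6.87e-05 to 0.0146 in limma-trend), as did 3 of the other retinoid genes and 485 of all tested genes. The residual degrees of freedom are then 1, and same-numbered samples deviated together (correlation 0.770 across genes), but the labels give the number no meaning and there are only 2 pairs, so it is not the main result. After quantile normalization 1 gene of all passed. With a minimum of 5 FPKM, 4 of the 9 genes remained for testing, and for 2 of these the groups did not overlap, as for 21.6% of the 9924 genes tested there. Aldh1a1, Cyp26b1, Rara and Rarb changed sign under the alternatives named beside them. With 1 sample left out, so that its group holds 1 sample assumed to vary like the other group, differences ran from -1.06 to 0.72 for Aldh1a1, from -0.32 to 0.023 for Cyp26b1, from -0.041 to 0.32 for Rara and from -0.45 to 0.31 for Rarb. After quantile normalization Cyp26b1 was 0.0018 and Rarb 0.066. With 1 sample left out, which leaves a group with 1 value, the number of the 9 whose groups did not overlap ran from 6 to 8, where 45.1% to 75.6% of all tested genes did not overlap either. The median of the other retinoid genes then ran from -0.15 to -0.0042, and that median was 0.023 with TPM, 0.019 with median-of-ratios and 0.029 with quantile scaling. A fit with 1 sample left out has sample numbers unbalanced between the groups, so differences by number, as in Aldh1a1 and Rarb, enter it. Causes of these changes were otherwise not tested. The scalings took the median log2 difference of all genes from -0.02 to between -0.04 and 0.03.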
